A study of Homo sapiens with 4 samples.

Results

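The 42 interferon-stimulated genes described here are the rows of the gene tables whose symbol is on a list of known interferon targets, 42 of 25411 rows. The RNA came from BEAS-2B, a long-established human cell line derived from the bronchial epithelium and kept in Dulbecco's modified Eagle's medium. There were 2 libraries of cells kept 72 h with 5 µM CdCl2 (cadmium chloride) and 2 libraries of control cells grown for 72 h, for which the labels name no vehicle. The labels place both cadmium libraries under experiment 2 and both controls under experiment 1, so experiment and treatment cannot be told apart, and nothing says that replicates were separate cultures. P-values here can reflect no more than library-to-library spread, part or all of it possibly technical. Reads assigned to genes numbered 29937242 and 15537382 in cadmium replicates 1 and 2, and 26529403 and 8609243 in control replicates 1 and 2. Of the 42 genes, 40 had enough reads to be tested after the filter on low counts, and RSAD2 and CMPK2 did not.

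Interferons are secreted proteins that bind receptors on the cell surface. JAK kinases at the receptors then phosphorylate STAT proteins, among them STAT2, which joins IRF9 in a complex that binds the interferon-stimulated response element in the promoters of target genes. The products of those genes sense foreign nucleic acids, block virus entry, translation and replication, and tune the signal itself. In airway epithelium the system is known for its response to respiratory viruses, and many target genes keep a low level of transcription without infection.

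The response element, searched on either strand as GAAA, any 2 bases and GAAA again, was found in most of the genes with a promoter entry. Since the genes were listed as known interferon targets, a high share is a description and no independent result. RefSeq promoter windows (GRCh38.p14, 250 bases before to 50 bases after a start site) were matched for 34 genes, DDX58 under its newer symbol RIGI. No entry was matched for IRF7, DHX58, OAS2, OASL, IFIT2, IFITM2, MX2 and USP18. The motif was in a window of 22 of the 34 genes (64.7%), against 4.38% of the 27305 genes in the whole table. By window it was in 56.5% of 46 member windows and in 3.57% of all 35116. The gamma-activated site TTCNNNGAA was in a window of 11 of the 34 (32.4%), against 9.38% of all genes. A match describes the letters only, and matches could overlap, as the pair of ISG15 does. The search covered this exact form in these windows only, so a gene without a match is not shown to lack the element. Stretches of 30 bases around the motif are shown on the gene's strand, 5′ to 3′, with the motif in capitals which reads TTTC, 2 bases and TTTC where it lies on the opposite strand. The first 6 genes were higher in control replicate 1 than in the other 3 libraries, ISG20 was lowest there, and for IFITM3 and PARP14 the cadmium and control libraries overlapped.
IFI27, chr14:94110618-94110647, plus strand: atgtctgcagTTTCGGTTTCctggaaaatg
IFIT1, chr10:89392510-89392539, plus strand: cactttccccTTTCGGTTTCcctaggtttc
IFIT3, chr10:89332425-89332454, plus strand: acagattctgTTTCAGTTTCccctcaagag
MX1, chr21:41420559-41420588, plus strand: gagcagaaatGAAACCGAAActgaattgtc
ISG15, chr1:1013380-1013409, plus strand: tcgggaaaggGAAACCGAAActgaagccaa
IFI44, chr1:78649761-78649790, plus strand: gcacactgagTTTCAGTTTCctttctctga
ISG20, chr15:88638937-88638966, plus strand: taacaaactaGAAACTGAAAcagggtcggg
IFITM3, chr11:320876-320905, minus strand: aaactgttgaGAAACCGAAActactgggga
PARP14, chr3:122680800-122680829, plus strand: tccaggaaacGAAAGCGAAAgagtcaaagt

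The whole promoter window is shown for IFI27, the gene that differed most between the controls, and for one start site of IFIT3, which was lower with cadmium. Both carry the motif at 2 places, given in capitals.
IFI27, chr14:94110486-94110785, plus strand: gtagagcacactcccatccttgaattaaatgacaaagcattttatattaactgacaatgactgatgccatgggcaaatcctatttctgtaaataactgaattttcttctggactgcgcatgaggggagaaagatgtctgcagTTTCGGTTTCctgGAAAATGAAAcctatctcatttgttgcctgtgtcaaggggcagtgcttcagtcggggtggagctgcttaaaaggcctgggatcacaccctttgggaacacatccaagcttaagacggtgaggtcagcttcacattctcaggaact
IFIT3, chr10:89332279-89332578, plus strand: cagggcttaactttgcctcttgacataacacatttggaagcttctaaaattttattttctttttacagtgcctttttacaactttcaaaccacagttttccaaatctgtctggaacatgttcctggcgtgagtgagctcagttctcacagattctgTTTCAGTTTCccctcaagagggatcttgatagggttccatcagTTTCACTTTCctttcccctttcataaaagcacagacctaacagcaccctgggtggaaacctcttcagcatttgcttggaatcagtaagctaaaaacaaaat

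Cadmium libraries were set against control libraries to find transcripts that differed after the exposure. Of the 40 tested interferon-stimulated genes, IRF9, OASL, IFIT2, IFIT3, MX1, IFI35 and XAF1 fell, 0 rose and 33 did not pass (edgeR, Benjamini-Hochberg adjusted p under 0.05 over 13663 genes). The 7 that fell are 7 of 40, beside 7.66% of all tested genes that fell and 8.85% that rose. The median log2 fold change was -0.51 over the 40 genes, against 0.0019 over all tested genes. DESeq2 also called 7 lower and 0 higher, and among members with a positive fold change only STAT2 and ISG20 had an unadjusted edgeR p under 0.05 (0.0192 and 0.0246). The fold change was below 0 for 33 of the 40, against 49.8% of all tested genes. Both cadmium libraries lay below both controls for 21 members, against 30.8% of all tested genes, and above both for 5, against 31.3%. The authors' deposited table also lists 7 of the 42 as lower and 0 as higher at an adjusted p under 0.05, beside 3.93% lower and 3.87% higher of its 25411 rows, and all 7 are the genes named above. In bulk RNA, fewer cells that express a gene and less of its RNA per cell cannot be told apart.

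The 2 control libraries stood apart from each other in these genes. To compare libraries, each gene's reads are expressed as CPM after TMM scaling. Summed over the 42 genes, the level was 1645 and 1516 CPM in cadmium replicates 1 and 2, 2406 CPM in control replicate 1 and 1709 CPM in control replicate 2. Control replicate 1 was the highest of the 4 libraries for 32 of the 40 tested genes, against 27.5% of all tested genes, and control replicate 2 for 1 of 40, against 25.6%. OAS1, OAS2, IFIT1, MX2, IFI27, IFI44, IFI44L and XAF1 were more than 2-fold higher in control replicate 1 than in control replicate 2, 8 of 40 beside 2.56% of all tested genes. None of the 40 was more than 2-fold higher in control replicate 2, beside 2.55% of all tested genes. The median log2 ratio of control replicate 1 over control replicate 2 was 0.50 for the members and -0.0060 for all tested genes. Between the cadmium libraries the members' median log2 ratio was 0.13, and 0 of 40 differed by more than 2-fold, beside 1.16% of all tested genes that were higher in replicate 1 and 0.432% in replicate 2. The log2 ratio between the controls ran from -0.63 to 2.07 in the 21 tested genes with the searched motif in a window (median 0.65). In the 11 tested genes whose windows did not hold that motif, the ratio ran from 0.05 to 1.31 (median 0.34), so the ranges overlapped. The median log2 fold change of cadmium over control had the other order, -0.39 with the motif and -0.49 without it. Its ranges, -2.28 to 0.81 and -1.42 to 0.26, overlapped too.

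**Figure D1:**
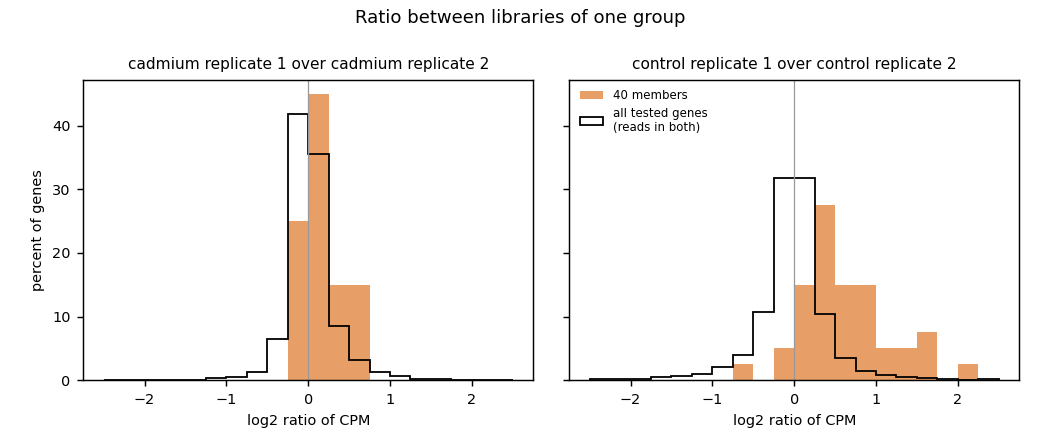
Log2 ratio of CPM (x axis) between the 2 cadmium libraries (left) and the 2 control libraries (right), as the percent of genes (y axis), for the 40 tested members (filled) and all tested genes with reads in both libraries (line). The members centre near 0.13 between the cadmium libraries and near 0.50 between the controls, where 8 of them lie above 1.

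Both cadmium libraries were below control replicate 1 for 33 of the 40 genes, against 42.3% of all tested genes, and below control replicate 2 for 21 of the 40, against 41.6%. They were both above control replicate 2 for 7 of the 40, against 42.9%. With control replicate 2 left out, 26 of the 40 genes fell and ISG20 alone rose, beside 12.5% of all tested genes lower and 13.8% higher. With control replicate 1 left out, IRF9, OAS2, OASL, IFIT3, MX1, ISG15 and IFI35 fell, 7 of 39, and STAT2 and HERC5 rose, beside 7.34% lower and 7.56% higher. The median log2 fold change was -0.66 in the first case and -0.11 in the second. IRF9, OASL, IFIT3, MX1 and IFI35 were thus lower with both controls and against each control alone. In these fits the lone control is assumed to vary like the cadmium pair. Without cadmium replicate 1, OASL and IFI35 fell, and without cadmium replicate 2, IRF9, OASL and IFI35 did, beside 1.73% and 2.08% of all tested genes, and 0 members rose in either, beside 2.71% and 4.18%, so that OASL and IFI35 passed in every one of these fits.

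**Figure D2:**
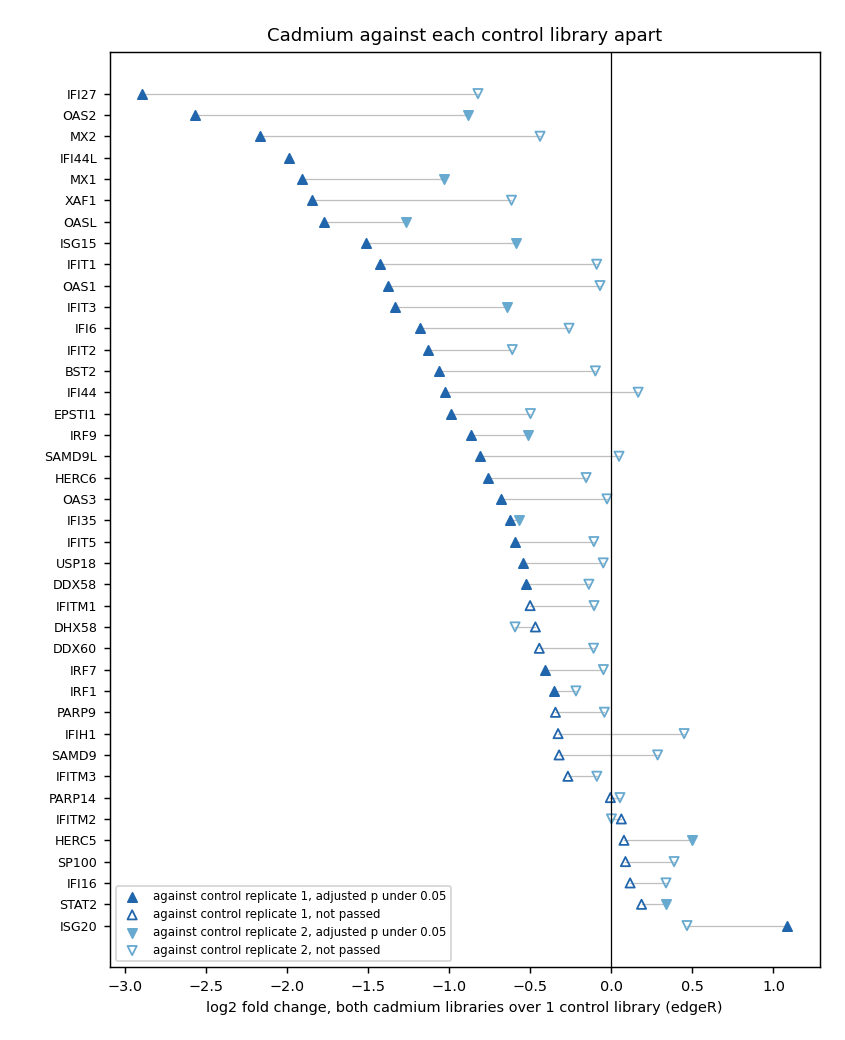
Log2 fold change (x axis, edgeR) of the 2 cadmium libraries over control replicate 1 alone (upward triangles) and over control replicate 2 alone (downward triangles) for the tested members (rows). Filled symbols have an adjusted p under 0.05: 26 lower and 1 higher against control replicate 1, and 7 lower and 2 higher against control replicate 2, where IFI44L was not tested.

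Of the 4 factors that carry the signal, IRF9 fell and the other 3 did not pass. IRF9, the DNA-binding part of the complex, had 22.2 and 22.7 CPM in cadmium replicates 1 and 2, 40.7 CPM in control replicate 1 and 32.1 CPM in control replicate 2. It averaged 22.4 ± 0.314 CPM with cadmium and 36.4 ± 6.09 CPM in control (SD, n = 2 each). The log2 fold change was -0.71 (SE 0.14, edgeR adjusted p = 0.0141). The groups did not overlap, and the difference was -0.87 against control replicate 1 and -0.52 against control replicate 2. STAT2, its partner in the complex, had 117 and 114 CPM with cadmium, 101 CPM in control replicate 1 and 91.0 CPM in control replicate 2. At 0.26 its log2 fold change missed the threshold (SE 0.09, edgeR adjusted p = 0.0819). It was 0.19 against control replicate 1 alone and 0.34 against control replicate 2 alone. IRF1, an early activator of target genes, did not pass either, at -0.29 (SE 0.096, edgeR adjusted p = 0.0736), and its cadmium libraries lay below both controls. IRF7, which amplifies interferon gene transcription, had the highest RPKM of the 4 factors, 27.2 and 23.7 RPKM with cadmium, 33.0 RPKM in control replicate 1 and 25.9 RPKM in control replicate 2. Its libraries overlapped between the groups.

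Of 5 nucleic acid sensors 0 passed with edgeR or DESeq2 on all 4 libraries after the filter on low counts, and DDX58 and DHX58 had an unadjusted p of 0.0472 and 0.0147. With no filter DHX58 was lower (edgeR adjusted p = 0.0226), and without control replicate 2 DDX58 was lower (-0.53, edgeR adjusted p = 0.0108). DHX58, which encodes LGP2, a regulator of the RNA sensors RIG-I and MDA5, had 16.0 and 11.8 CPM with cadmium, 19.4 CPM in control replicate 1 and 21.3 CPM in control replicate 2. It was the one tested gene of the 40 with its highest level in control replicate 2 (log2 fold change -0.53, SE 0.17, edgeR adjusted p = 0.0697). IFIH1, encoding MDA5, had 12.1 and 12.6 CPM with cadmium, 15.4 CPM in control replicate 1 and 9.03 CPM in control replicate 2. The cadmium libraries lay between the controls, so the sign of its log2 fold change depended on the control, -0.33 against control replicate 1 and 0.45 against control replicate 2. IFI16, a sensor of DNA, had the highest RPKM of the sensors, 23.9 and 24.7 RPKM with cadmium, 21.8 RPKM in control replicate 1 and 18.8 RPKM in control replicate 2, and its log2 fold change of 0.22 did not pass. DDX58, encoding RIG-I, and DDX60 had log2 fold changes of -0.36 and -0.31.

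The OAS enzymes make the 2'-5' oligoadenylates that switch on RNase L, which degrades RNA. The related OASL protein lacks that activity. OASL had 3.89 and 2.53 CPM with cadmium, 11.3 CPM in control replicate 1 and 7.96 CPM in control replicate 2, so the groups did not overlap. It fell by 1.58 on the log2 scale (SE 0.27, edgeR adjusted p = 0.0104), by 1.77 against control replicate 1 and by 1.27 against control replicate 2. OAS2 had 8.23 and 7.21 CPM with cadmium, 46.1 CPM in control replicate 1 and 14.4 CPM in control replicate 2. Cadmium lay below both controls, but the controls were further apart from each other than control replicate 2 was from cadmium, and the log2 fold change of -2.02 did not pass (SE 0.67, edgeR adjusted p = 0.150), though it did with limma-voom (adjusted p = 0.0310). Against control replicate 2 alone OAS2 fell by 0.89 (SE 0.21, edgeR adjusted p = 0.0152). OAS3, the most abundant of the family by RPKM, had 30.1 and 28.5 RPKM with cadmium, 45.8 RPKM in control replicate 1 and 29.2 RPKM in control replicate 2. OAS1 had 8.85 and 6.01 CPM with cadmium, 19.7 CPM in control replicate 1 and 7.96 CPM in control replicate 2. For OAS1 and OAS3 control replicate 2 stood between the cadmium libraries, and the log2 fold changes against it were -0.070 and -0.027, against -1.38 and -0.68 with control replicate 1.

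Some IFIT proteins bind foreign or unmethylated RNA ends and block their translation. Of the 4 IFIT genes, 2 fell. IFIT3 had 15.4 and 14.2 CPM with cadmium, 37.4 CPM in control replicate 1 and 23.3 CPM in control replicate 2. It fell by 1.06 on the log2 scale (SE 0.21, edgeR adjusted p = 0.0187), by 1.33 against control replicate 1 and by 0.64 against control replicate 2 (edgeR adjusted p = 0.0202). IFIT3 also had the highest RPKM of the family, a mean of 5.25 RPKM with cadmium and 10.5 RPKM in control. IFIT2 had 6.37 and 5.51 CPM with cadmium, 13.1 CPM in control replicate 1 and 9.15 CPM in control replicate 2, and fell by 0.93 (SE 0.22, edgeR adjusted p = 0.0257). Without control replicate 1 its log2 fold change was -0.61 and did not pass (edgeR adjusted p = 0.111). IFIT1 had 2.66 and 2.22 RPKM with cadmium, 6.44 RPKM in control replicate 1 and 2.58 RPKM in control replicate 2. Its difference followed the control used, at -1.43 and -0.091 on the log2 scale. IFIT5 stood at -0.39 on that scale and did not pass.

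The MX genes encode dynamin-like GTPases that trap viral nucleoproteins (MX1) or viral capsids (MX2). MX1 had 17.6 and 15.3 CPM with cadmium, 61.7 CPM in control replicate 1 and 33.9 CPM in control replicate 2. It averaged 16.4 ± 1.64 CPM with cadmium and 47.8 ± 19.7 CPM in control (SD, n = 2 each) and fell by 1.56 on the log2 scale (SE 0.30, edgeR adjusted p = 0.0280). The log2 fold change was -1.91 against control replicate 1 and -1.03 against control replicate 2 (edgeR adjusted p = 0.00183), but with no filter on low counts MX1 missed the threshold (edgeR adjusted p = 0.153). MX2 had 8.69 and 7.47 CPM with cadmium, 36.6 CPM in control replicate 1 and 11.1 CPM in control replicate 2. Control replicate 1 stood apart from the other 3 libraries for MX2, and its log2 fold change was -1.62 (SE 0.65, edgeR adjusted p = 0.203), with -0.44 against control replicate 2.

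ISG15 is a ubiquitin-like protein that is joined to other proteins, with HERC5 as a main ligase and USP18 as the protease that removes it and dampens the receptor. None of the 4 genes of this system passed with edgeR or DESeq2 on all libraries, and ISG15 had an unadjusted p of 0.0396. ISG15 itself had 98.9 and 97.5 RPKM with cadmium, 274 RPKM in control replicate 1 and 145 RPKM in control replicate 2. In CPM these levels were 73.7 and 73.4 with cadmium, 209 in control replicate 1 and 111 in control replicate 2. The cadmium libraries were alike and below both controls, and the log2 fold change was -1.13 (SE 0.35, edgeR adjusted p = 0.128). With limma-voom on the same 4 libraries ISG15 passed (-1.12, adjusted p = 0.0227). Against control replicate 2 alone ISG15 fell by 0.59 (SE 0.11, edgeR adjusted p = 0.00472) and against control replicate 1 by 1.52. HERC5 went the other way, with 29.6 and 28.4 CPM with cadmium, 27.4 CPM in control replicate 1 and 20.6 CPM in control replicate 2. Its log2 fold change was 0.25 with both controls, 0.078 against control replicate 1 alone and 0.50 against control replicate 2 alone. USP18 and HERC6 had log2 fold changes of -0.34 and -0.53 and did not pass.

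**Figure D3:**
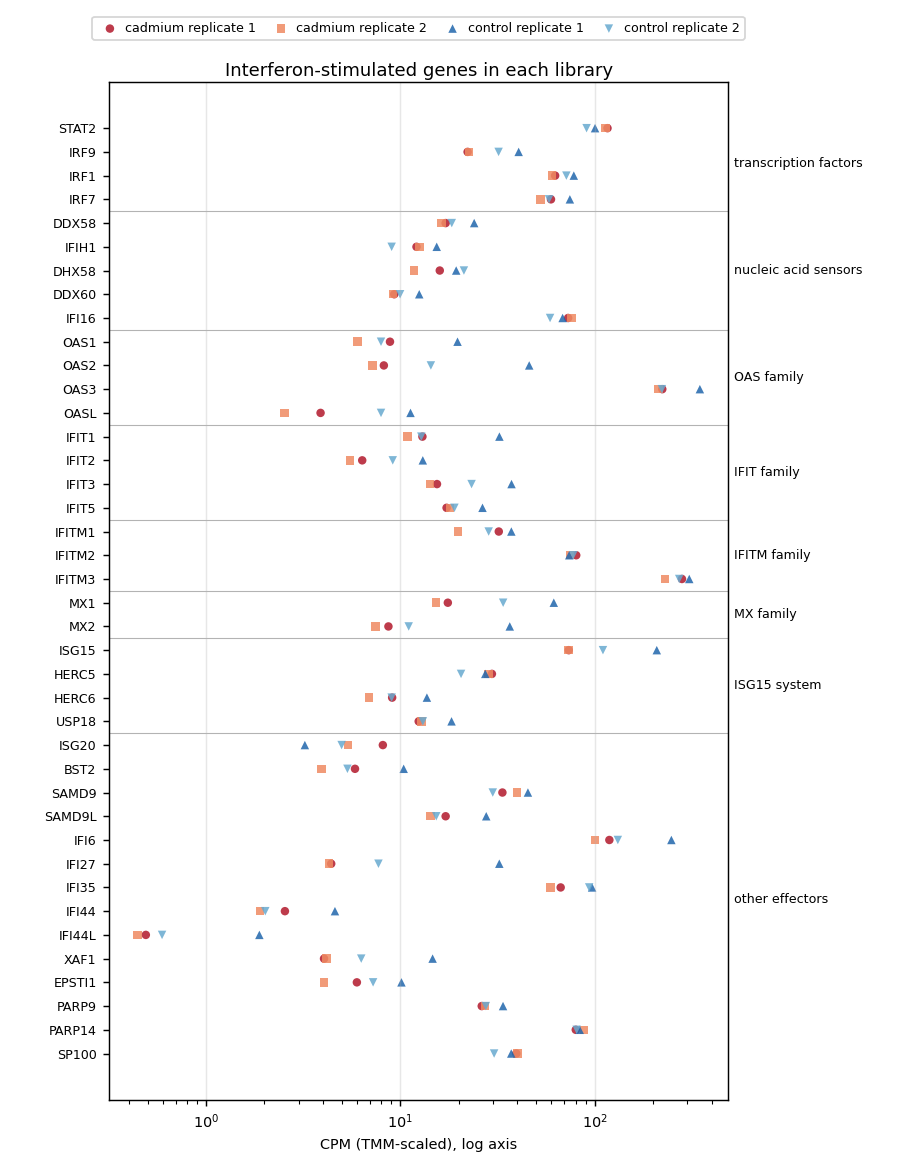
CPM (x axis, log scale) of the 40 tested interferon-stimulated genes (rows, grouped by role) in each cadmium and control library. Control replicate 1 is the rightmost symbol for 32 genes, and the cadmium symbols lie left of both controls for 21.

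The IFITM proteins sit in membranes and restrict virus entry, and they were the most abundant group per length. IFITM3 had 379 and 307 RPKM with cadmium, 402 RPKM in control replicate 1 and 357 RPKM in control replicate 2. IFITM1 had 32.1 and 19.9 CPM with cadmium, 37.3 CPM in control replicate 1 and 28.5 CPM in control replicate 2. IFITM2 had 80.5 and 74.8 CPM with cadmium, 74.1 CPM in control replicate 1 and 77.7 CPM in control replicate 2. The groups overlapped for all 3, none of which passed with edgeR or DESeq2 or had an unadjusted p under 0.05, and the log2 fold changes ran from -0.34 (IFITM1) to 0.036 (IFITM2). Their sequences are near copies, which makes the sharing of reads between them uncertain.

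Among the other 16 effector and induced genes, IFI35 and XAF1 fell and 12 of the 14 tested did not pass. IFI35, a partner of the signalling regulator NMI, had 66.9 and 59.2 CPM with cadmium, 97.2 CPM in control replicate 1 and 93.8 CPM in control replicate 2. The controls were nearly equal for it, and it fell by 0.60 on the log2 scale (SE 0.098, edgeR adjusted p = 0.00954), by 0.63 and 0.57 against control replicates 1 and 2. XAF1, which antagonises the apoptosis inhibitor XIAP, had 4.05 and 4.18 CPM with cadmium, 14.7 CPM in control replicate 1 and 6.29 CPM in control replicate 2. It fell by 1.42 (SE 0.37, edgeR adjusted p = 0.0421), but without control replicate 1 the log2 fold change was -0.62 and did not pass (edgeR adjusted p = 0.161). IFI6, a mitochondrial and endoplasmic reticulum protein with the highest RPKM of this group, had 127 and 105 RPKM with cadmium, 257 RPKM in control replicate 1 and 137 RPKM in control replicate 2. Its log2 fold change of -0.80 did not pass (SE 0.36, edgeR adjusted p = 0.238).

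IFI27, a small membrane protein used as a blood marker of interferon exposure, had the widest gap between the controls. It had 135 and 68 reads with cadmium, 842 reads in control replicate 1 and 65 reads in control replicate 2, or 4.41, 4.30, 32.3 and 7.72 CPM in that order. Control replicate 1 was 4.19 times control replicate 2, with a 95% exact Clopper-Pearson counting interval of 3.25 to 5.48 that covers counting error in these 2 libraries only. The log2 fold change was -2.28 with both controls (SE 0.81, edgeR adjusted p = 0.171, limma-voom adjusted p = 0.0417) and -0.82 against control replicate 2 alone (edgeR adjusted p = 0.0557). IFI44L had 15 and 7 reads with cadmium, 49 reads in control replicate 1 and 5 reads in control replicate 2, and its ratio between the controls was 3.17 with an interval of 1.27 to 10.2.

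For some effectors the sign itself turned with the control. SAMD9, a restriction factor of poxviruses, had 33.5 and 39.9 CPM with cadmium, 45.4 CPM in control replicate 1 and 29.9 CPM in control replicate 2. SAMD9L, its close relative, had 17.1 and 14.3 CPM with cadmium, 27.7 CPM in control replicate 1 and 15.3 CPM in control replicate 2. IFI44, which lies next to IFI44L, had 2.55 and 1.90 CPM with cadmium, 4.61 CPM in control replicate 1 and 2.02 CPM in control replicate 2. Against control replicates 1 and 2 the log2 fold changes were -0.32 and 0.29 for SAMD9, -0.81 and 0.047 for SAMD9L, and -1.03 and 0.17 for IFI44. PARP14, an ADP-ribosyltransferase, hardly differed in either case, with 80.1 and 88.2 CPM with cadmium, 83.8 CPM in control replicate 1 and 80.9 CPM in control replicate 2 (log2 fold change 0.027, SE 0.094, edgeR adjusted p = 0.870).

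ISG20, a 3' to 5' exonuclease of single-stranded RNA, was the member with the largest positive fold change. It had 8.13 and 5.38 CPM with cadmium, 3.23 CPM in control replicate 1 and 4.99 CPM in control replicate 2. Its cadmium libraries lay above both controls, and the log2 fold change of 0.81 did not pass (SE 0.30, unadjusted p = 0.0246, edgeR adjusted p = 0.0948). BST2, EPSTI1, PARP9 and SP100 had log2 fold changes of -0.73, -0.80, -0.21 and 0.22 and did not pass. PARP9 overlaps DTX3L on the opposite strand, and the use of strand in counting is not given in the sources used here. RSAD2, which encodes viperin, had 1 and 0 reads with cadmium, 13 reads in control replicate 1 and 0 reads in control replicate 2. CMPK2, its neighbour on chromosome 2, had 0 and 0 reads with cadmium, 0 reads in control replicate 1 and 2 reads in control replicate 2. Both were too low to compare, since 3 reads correspond to 0.356 CPM in control replicate 2, the shallowest library.

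Upstream of these genes, interferon transcripts were scarcely detected. Of 21 interferon ligand genes 20 had 0 reads in all 4 libraries, which allows up to 0.098 CPM in the deepest library and 0.356 CPM in the shallowest. IFNE, an epithelial type I interferon, had 6 and 2 reads with cadmium, 1 read in control replicate 1 and 0 reads in control replicate 2. The receptor genes IFNAR1, IFNAR2, IFNGR1, IFNGR2 and IL10RB had log2 fold changes from -0.14 to 0.034 and did not pass. IFNLR1, the receptor chain for type III interferons, had 16.4 and 12.1 CPM with cadmium, 5.07 CPM in control replicate 1 and 9.03 CPM in control replicate 2. It rose by 1.11 on the log2 scale (SE 0.29, edgeR adjusted p = 0.0389), but not without control replicate 1 (0.68, edgeR adjusted p = 0.0782) or cadmium replicate 1 (edgeR adjusted p = 0.194).

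Among the 3 kinase and 11 sensing genes tested, only MYD88, the adaptor of most Toll-like receptors, was lower, beside 7.66% of all tested genes. It had 44.4 and 44.7 CPM with cadmium, 66.6 CPM in control replicate 1 and 57.6 CPM in control replicate 2, and fell by 0.49 (SE 0.11, edgeR adjusted p = 0.0208). Without control replicate 1 its log2 fold change was -0.37 (edgeR adjusted p = 0.0584), and it did not pass without cadmium replicate 1 or without cadmium replicate 2 (edgeR adjusted p = 0.117 and 0.0851). The kinase genes JAK1, JAK2 and TYK2 did not pass, at 0.27, -0.16 and 0.037. All 4 feedback inhibitors on the list rose, beside 8.85% of all tested genes. SOCS3, which blocks JAK kinases, had 126 and 111 CPM with cadmium, 89.9 CPM in control replicate 1 and 80.8 CPM in control replicate 2, and rose by 0.47 (SE 0.10, edgeR adjusted p = 0.0189). SOCS1, another such inhibitor, rose by 1.10 (edgeR adjusted p = 0.0376). PIAS1, an inhibitor of STAT signalling, rose by 0.45 (edgeR adjusted p = 0.0438). IRF2, a repressor that competes for target promoters, rose by 0.41 (edgeR adjusted p = 0.0492). In the authors' deposited table only SOCS3 of the 4 passed (adjusted p = 0.00399). There SOCS1, PIAS1 and IRF2 had an adjusted p of 0.0792, 0.0666 and 0.0662. SOCS3 alone of these also passed without control replicate 1 (edgeR adjusted p = 0.00939), and none of the 4 passed with edgeR without cadmium replicate 1.

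**Figure D4:**
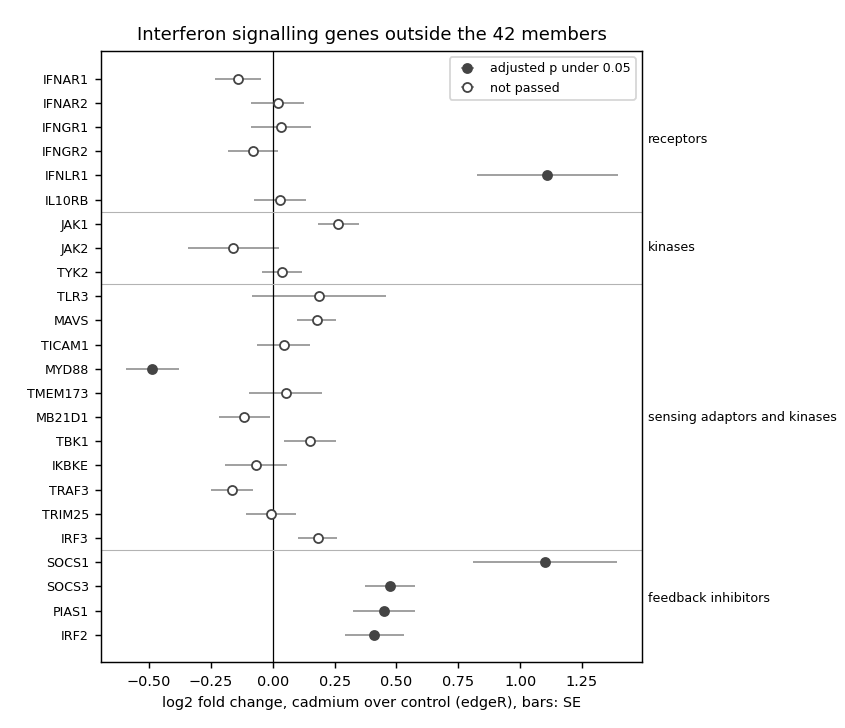
Log2 fold change of cadmium over control (x axis, edgeR, bars are SE) for the tested receptor, kinase, sensing and feedback genes of the interferon pathway outside the 42 (rows). Filled points have an adjusted p under 0.05: MYD88 lies below 0, and IFNLR1 and the 4 genes listed as feedback inhibitors lie above.

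Over all 62 tested pathway genes outside the 42, 7 fell and 6 rose, beside the 7.66% and 8.85% of all tested genes, and the median log2 fold change was -0.014. Of 38 further target genes 6 fell, CXCL10, TRIM22, GBP1, PNPT1, TRIM14 and LAP3, and SLFN11 rose. GBP1, a GTPase that acts on intracellular pathogens, had 34.2 and 30.4 CPM with cadmium, 59.2 CPM in control replicate 1 and 47.4 CPM in control replicate 2, and fell by 0.73 (SE 0.13, edgeR adjusted p = 0.0122). Its relative GBP2 went the other way, at 1.45, and did not pass (SE 0.38, edgeR adjusted p = 0.0616). In the authors' deposited table GBP2 was higher (adjusted p = 0.000475). GBP3 and GBP4, at 0.13 and 0.46, did not pass. TRIM22, a ubiquitin ligase, fell by 0.95 (SE 0.20, edgeR adjusted p = 0.0187), and CXCL10, a T cell chemokine, had 8 and 4 reads with cadmium, 49 reads in control replicate 1 and 6 reads in control replicate 2. SLFN11, which restricts viral translation and stalled replication forks, had 135 and 139 CPM with cadmium, 94.0 CPM in control replicate 1 and 86.5 CPM in control replicate 2, and rose by 0.60 (SE 0.088, edgeR adjusted p = 0.00703). Without control replicate 1, the log2 fold changes of the 6 lower targets ran from -1.44 (CXCL10) to -0.35 (LAP3). With both controls these 2 genes had -2.48 and -0.45. In the fit without control replicate 1, CXCL10, PNPT1 and LAP3 did not pass, and SLFN11 had a log2 fold change of 0.66. Of the 6 lower targets, TRIM22 and GBP1 also passed without cadmium replicate 1, and GBP1, PNPT1 and TRIM14 without cadmium replicate 2.

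The cell type and RNA quality markers stood as follows, and their part in the results was not tested. The keratin genes KRT8 and KRT18 had 587 and 617 CPM and 247 and 285 CPM with cadmium, against 540 and 649 CPM and 204 and 266 CPM in control, while KRT7 fell by 1.02 and EPCAM rose by 1.36 on the log2 scale (edgeR adjusted p = 0.00234 and 0.0131), EPCAM not without cadmium replicate 1 (edgeR adjusted p = 0.0994), and the epithelial markers CDH1 and KRT19 were nearly absent, CDH1 at no more than 0.949 CPM in any library. Of 12 leukocyte markers 6 had any read, and their summed level was 13.5 and 9.62 CPM with cadmium, 7.30 CPM in control replicate 1 and 12.5 CPM in control replicate 2, most of it CD14. ITGAM rose but stayed at 30 and 14 reads with cadmium, 8 reads in control replicate 1 and 2 reads in control replicate 2 (edgeR adjusted p = 0.0490), and it did not pass when any 1 of the 4 libraries was left out (edgeR adjusted p from 0.0648 to 0.311). PTPRC, which defines leukocytes, had 0 to 2 reads in each library, and CD3E, MS4A1 and LYZ had 0. The nuclear RNA MALAT1 had 399 and 402 CPM with cadmium, 215 CPM in control replicate 1 and 222 CPM in control replicate 2, and NEAT1 had 863 and 893 CPM with cadmium, 503 CPM in control replicate 1 and 666 CPM in control replicate 2, and both rose (edgeR adjusted p = 0.00188 and 0.0228). NEAT1 did not pass without cadmium replicate 1 or without cadmium replicate 2 (edgeR adjusted p = 0.0570 and 0.0581).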

How the data were processed

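RNA was measured in 4 BEAS-2B libraries, 2 with 5 µM CdCl2 for 72 h and 2 controls. Extraction used RNeasy columns and library preparation Illumina TruSeq RNA, per the labels' protocols. STAR 2.4, DESeq2, DESeq and hg19 appear in the submitters' processing notes without a role. For the counter, annotation and strand setting, the entry is: not given in the sources used here. Each library has whole-number read counts and RPKM per RefSeq gene, as deposited and per the file headers. The authors' deposited table holds mean RPKM, a log ratio read as log2, and p-values, raw and adjusted. The log2 RPKM ratio had a slope of 1.11 on that log ratio over 1781 genes.

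Counts were tested with R 4.3.3 and edgeR 4.0.16 (filterByExpr, TMM, robust quasi-likelihood, group alone), with Benjamini-Hochberg adjustment over 13663 genes. The SE was derived from the F statistic. CPM levels are mean ± SD. The procedure was tested on simulated counts. In the lists outside the members, some genes are not reported here. The members, lists and tests were chosen with earlier results of these data known. Values in every library are given for members with an adjusted p under 0.05, for the highest RPKM and the largest fold change in each role group, and for members whose sign turned without 1 control; STAT2, HERC5, ISG20, OAS1, IFIT1, IFITM2, IFI44L, RSAD2 and CMPK2 were added after their values were seen. Alternatives were a replicate block, other scalings and filters, DESeq2 1.42.0, limma-voom (limma 3.58.1), thinned counts and leaving out each library. Libraries of one group differed by more than sampling noise (chi-square per gene 7.72 between the cadmium libraries and 11.8 between the controls).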

Additional observations from a re-analysis of the deposited data

How the results depend on the processing

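The count of lower members stayed between 6 and 10 under the other scalings, filters and tests, and ran from 2 to 26 when 1 library was left out. Higher members numbered 1 with library size alone and 1 with no filter, and 0 to 2 when 1 library was left out. The members' median log2 fold change ran from -0.69 to -0.11 without 1 library. Over all tested genes, 682 were lower and 1445 higher with library size alone, against 1046 and 1209, and leaving out 1 library gave 235 to 1791 lower and 369 to 1977 higher. Pathway genes outside the members ran from 2 to 10 lower and from 1 to 8 higher. With the replicate numbers as a replicate block 10 members were lower and 0 higher, and 811 genes were lower and 1073 higher in all; OAS1, IFI6 and EPSTI1 then also passed, as did STAT2 (higher) with library size alone, DHX58, IFI44L and EPSTI1 (lower) and ISG20 (higher) with no filter, and OAS2, ISG15 and IFI27 (lower) with limma-voom. The labels do not say what the numbers pair. The deviations of equal numbers went against each other over all tested genes (Pearson r -0.186). Over the 40 members they were nearly unrelated (Pearson r -0.011). Both values are descriptions across genes. With the numbers crossed, chosen after seeing the data, 7 members were lower and 1 higher, and 1471 and 1551 genes in all. IFIH1, which never passed, turned to 0.021 under the replicate block, 0.021 under library-size scaling, 9.2e-05 when genes needed 5 CPM in 2 libraries and 0.066 with thinned counts. Without 1 library the log2 fold changes ran from -0.33 to 0.45 for IFIH1, -0.014 to 0.088 for IFITM2, -0.32 to 0.29 for SAMD9, -0.81 to 0.047 for SAMD9L, -1.03 to 0.17 for IFI44 and -0.041 to 0.10 for PARP14. XAF1 missed the threshold with thinned counts (edgeR adjusted p = 0.0513). The cause of these changes was not tested. With 2 libraries a group and 8609243 reads in the shallowest, RSAD2 and CMPK2 had too few reads to pass the filter on low counts. IFI44L could not be tested without control replicate 1. With no filter all 42 members were tested, and the 10 lower ones included RSAD2 or CMPK2, which had very few reads.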
